A study of Ovis aries with 20 samples.

Results

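The collagen genes were taken as every gene of the expression table whose symbol is COL, a number, A and a number. The rule gave 42 of 28524 genes, and each of the 42 had a value above 0 in some library. They encode chains of the fibrillar collagens, the basement membrane network, the beaded filaments, the hexagonal networks, the fibril-associated collagens, the multiplexins, the membrane-spanning collagens and a few others. COL6A4, COL19A1 and COL25A1 were not analysed here.

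Collagens are proteins of the extracellular matrix in which 3 chains wind into a triple helix. Fibrillar collagens such as types I, III and V are secreted as procollagens, trimmed, and assembled into the cross-linked fibrils that give a tissue tensile strength. Type IV collagen does not form fibrils but a sheet-like network, the backbone of basal laminae. In the ovarian follicle such a basal lamina separates the granulosa cells, an avascular epithelium that lines the antrum and makes estradiol, from the theca, a vascular stroma that surrounds it and makes androgen.

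The libraries came from sheep of 21 months whose mothers had been injected in pregnancy. Prenatal T sheep (209, 210, 230, 276 and 315) came from ewes given 100 mg testosterone propionate, 1.2 mg/kg, intramuscularly 2 times a week between gestation days 30 and 90. Control sheep (139, 224, 244, 246 and 268) came from ewes given vehicle over the same time. In all 10 animals estrus was synchronized with 2 injections of 10 mg prostaglandin F2α set 11 days apart, ovaries were collected 18 h after the last one, and granulosa and theca cells were cut by microdissection from sections of 14 µm and pooled over several antral follicles of an animal. RNA sequencing gave 19 libraries, granulosa of 5 prenatal T and 4 control sheep and theca of 5 prenatal T and 5 control sheep; granulosa cells of control sheep 139 were not analysed here.

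A level below is a gene count divided by the size factor of its library. It is not corrected for gene length, so levels are compared between libraries and not between genes. Libraries held 12699124 to 26028146 reads counted in genes. A log2 change is the difference between groups of the mean log2 of the level plus 1, which understates the change of low genes, and is given with its standard error (SE). It was tested by limma with Benjamini-Hochberg adjustment over all genes, and a gene was called at an adjusted p under 0.05. Nothing in the sources says how the animals of a group were related, so p-values measure the spread between these animals. In bulk samples, fewer cells of a type and less RNA per cell cannot be told apart.

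Both libraries of prenatal T sheep 209 stood apart from the rest. AMH, FSHR and CYP19, which mark granulosa cells, and CYP17A1, which marks theca cells, were at 0 in both. Summed levels of 8 general epithelium markers were 90810 in its granulosa and 22113 in its theca library, against at most 4012 and 687 in the other granulosa and theca libraries. Most results are therefore given with and without this animal. In the other libraries the layers matched their labels: AMH in granulosa was 483 to 859% of its level in theca of the same animal, and CYP17A1 4.86 to 35.3% (8 animals).

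The first comparison was of granulosa with theca, within animals. Granulosa libraries held far less collagen mRNA than theca libraries. Without sheep 209, all collagens together took 0.445 to 1.05% of the summed levels of all genes in a granulosa library and 4.94 to 7.39% in a theca library, and these ranges did not overlap. In sheep 209 they took 0.401% in granulosa and 3.83% in theca. Of 39 collagens that passed the filter on low values, 31 were called lower in granulosa and 3 were called higher. Over all 16269 genes tested, 28.0% were called lower and 28.6% higher. Their median log2 change was -2.11, beside 0.02 over all genes. Without sheep 209 the calls were again 31 lower and 3 higher, of 38 tested (background 31.0% lower and 31.7% higher), with a median of -2.38.

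**Figure D1:**
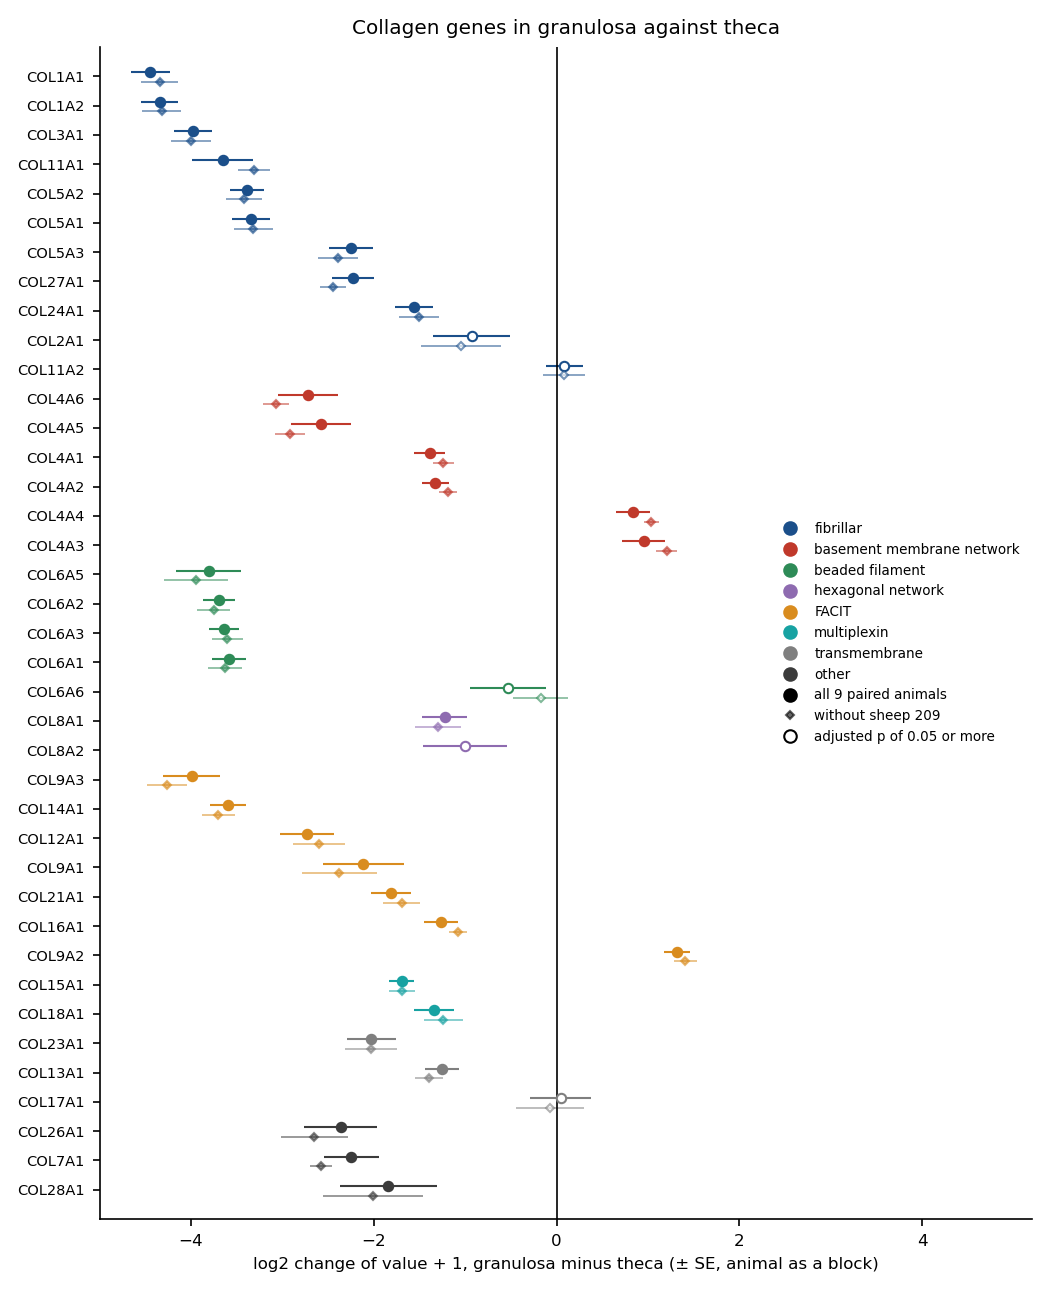
Log2 change between granulosa and theca (granulosa minus theca, ± SE, animal as a block) for each tested collagen, by class. Filled circles passed an adjusted p of 0.05 with all 9 paired animals, open circles did not, and small diamonds leave out sheep 209. COL1A1, at -4.44, lies at the low end, and COL9A2, COL4A3 and COL4A4 are the called genes to the right of 0.

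Fibrillar collagens lay well below their theca level. All 11 were tested and 9 were called lower in granulosa, with a median log2 change of -3.34. COL1A1 and COL1A2 encode the chains of type I collagen, the main fibril former of connective tissue. COL1A1 had levels of 3337 to 30780.3 in the 9 granulosa libraries (median 12589), against 127254 to 427685 in the 10 theca libraries (median 307782). The highest granulosa library lay far below the lowest theca library, and the log2 change was -4.44 ± 0.22 (adjusted p 8.93e-08, limma), a 21.8-fold difference. COL1A1 ranked 45th from the lowest among the 16269 log2 changes. COL1A2 ran from 4145 to 17495 in granulosa (median 7239) and from 106209 to 223578 in theca (median 171562), again without overlap, with a log2 change of -4.34 ± 0.20.

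COL3A1, the chain of type III collagen that makes thin fibrils with type I, had levels of 4076 to 24301 in granulosa (median 7886) and of 108626 to 188689 in theca (median 158336). Its log2 change was -3.98 ± 0.21. Type V chains, which help to set fibril diameter, followed: COL5A1 changed by -3.34 ± 0.21, COL5A2 by -3.38 ± 0.19 and COL5A3 by -2.25 ± 0.24. The ranges of COL5A1 and COL5A2 did not overlap between the layers, at most 4409 and 3022 in granulosa against at least 16656 and 13638 in theca. COL11A1, a chain of the type XI collagen known from cartilage fibrils, was lower in granulosa by a log2 change of -3.65 ± 0.33, with levels of 20.7 to 701 (median 417) there and 1839.7 to 6941 (median 3017) in theca.

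Not every fibrillar gene moved this far. COL27A1 and COL24A1, 2 less abundant fibrillar chains, had log2 changes of -2.23 ± 0.23 and -1.56 ± 0.21. The level of COL27A1 was 282 to 959 in granulosa (median 642) and 1346 to 4197 in theca (median 2788), without overlap. COL2A1, the cartilage collagen, did not pass the test (-0.93 ± 0.42, adjusted p 0.0801), and its levels did not exceed 27.1 in any library. COL11A2, a partner chain of COL11A1, had low and overlapping levels, at 12.7 to 76.1 (median 24.9) in granulosa and 13.8 to 56.2 (median 22.7) in theca, with a log2 change of 0.09 ± 0.21.

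Set within single animals, fibrillar mRNA in granulosa was a small share of that in theca. Without sheep 209, COL1A1 in granulosa was 2.30 to 9.06% of its level in theca of the same animal (median 5.17%, 8 animals), COL1A2 2.35 to 9.40% (median 5.10%) and COL3A1 2.83 to 13.1% (median 6.35%). Theca marker genes were present in granulosa libraries too: the steroidogenic enzyme CYP17A1 stood at 4.86 to 35.3% of its theca level (median 18.3%), the theca hormone INSL3 at 6.45 to 39.4% (median 19.0%) and the stromal transcription factor TCF21 at 4.69 to 18.2% (median 8.84%). How far theca RNA in the granulosa libraries makes up their fibrillar collagen was not tested.

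Beaded filaments of type VI collagen, which lie around cells, followed the fibrillar pattern. Of 5 tested genes 4 were called lower in granulosa, with a class median of -3.64. The log2 changes of COL6A1, COL6A2 and COL6A3, the chains of the classical trimer, were -3.58 ± 0.18, -3.69 ± 0.18 and -3.64 ± 0.16. COL6A1 had levels of 2137 to 8861 in granulosa (median 4028), against 33575 to 66824 in theca (median 50549), with no overlap. COL6A5 changed by -3.81 ± 0.35, whereas COL6A6 did not pass (-0.53 ± 0.42), its levels overlapping between granulosa (3.45 to 270) and theca (21.0 to 263).

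The network-forming type IV collagens of basal laminae went 3 ways. In textbook terms its chains assemble in fixed sets: COL4A1 with COL4A2, COL4A3 with COL4A4 and COL4A5, and COL4A5 with COL4A6. COL4A1 and COL4A2, the chains found in nearly all basal laminae, were moderately lower in granulosa. COL4A1 had levels of 12098 to 22419 in granulosa (median 17104) and 31588 to 73015 in theca (median 43591), with a log2 change of -1.39 ± 0.17. COL4A2 had 8156 to 14342 in granulosa (median 10934) and 19077 to 48259 in theca (median 26273), with a log2 change of -1.32 ± 0.15. For both genes the highest granulosa library lay below the lowest theca library. In single animals without sheep 209 granulosa kept 27.6 to 55.3% of the theca level of COL4A1 and 31.3 to 57.3% of that of COL4A2, several times the share kept by COL1A1.

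COL4A3 and COL4A4, chains of a later-made network known from kidney glomeruli and, in some species, from follicles, were higher in granulosa. COL4A3 in prenatal T sheep 209, 210, 230, 276 and 315 was 19.6, 3177, 2823, 3403 and 1787 in granulosa, and in control sheep 224, 244, 246 and 268 it was 4002, 3828, 4318 and 3571. In theca it was 41.8, 1270.0, 854, 1919 and 1233 in the same prenatal T sheep, and 869, 1386, 1735, 1941 and 1358 in control sheep 139, 224, 244, 246 and 268. Granulosa exceeded theca in each of the 8 paired animals other than sheep 209, in which both values were low. The log2 change was 0.95 ± 0.24 (adjusted p 0.00507) and 1.20 ± 0.11 without sheep 209. COL4A4 behaved alike, with 6997 to 14446 in granulosa (median 10949) and 3443 to 7814 in theca (median 5326) without sheep 209. Its log2 change was 0.83 ± 0.19 (adjusted p 0.00289) and 1.04 ± 0.08 without that animal. Granulosa held 145 to 331% of the theca level of COL4A3 and 157 to 288% of that of COL4A4 in those 8 animals. When the animal was not kept as a block, neither passed (adjusted p 0.355 and 0.483).

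COL4A5 and COL4A6, encoded by adjacent X-linked genes, were lower in granulosa. Without sheep 209, COL4A5 had levels of 175 to 689 in granulosa (median 439) and 2343 to 4664 in theca (median 3218), and COL4A6 112 to 332 (median 184) and 1249 to 3136 (median 1567). Neither gene's ranges overlapped, and the log2 changes were -2.57 ± 0.33 and -2.72 ± 0.33 with all animals and -2.92 ± 0.17 and -3.07 ± 0.14 without sheep 209. COL4A5 thus moved opposite to COL4A3 and COL4A4, with which its chain assembles.

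**Figure D2:**
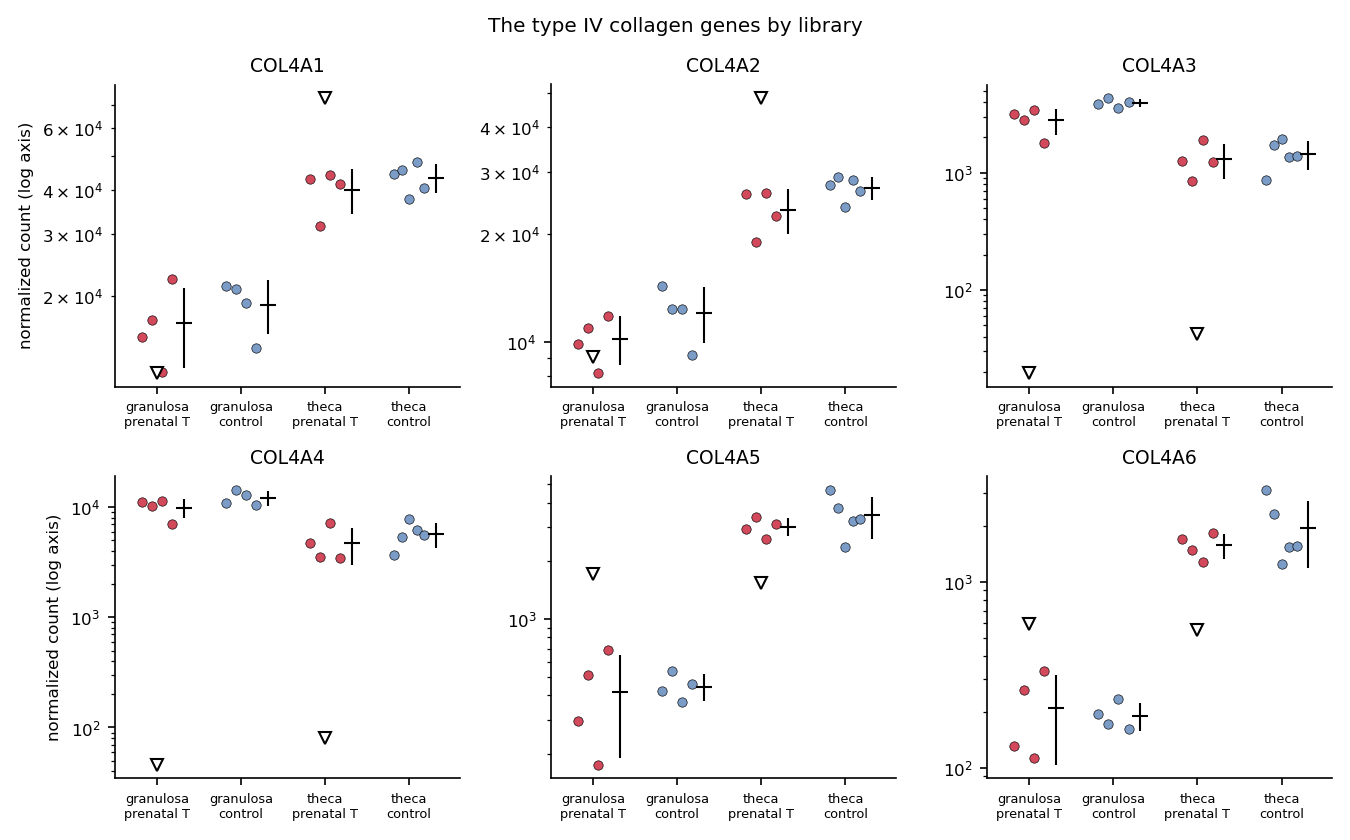
Levels of the 6 type IV collagen genes by library on a log axis, in granulosa and theca, prenatal T left of control in each layer. Points are libraries, open triangles are sheep 209, and bars are the mean ± SD without sheep 209. COL4A3 and COL4A4 sit higher in granulosa, COL4A5 and COL4A6 lower, and sheep 209 lies far below the rest for COL4A3 and COL4A4.

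Fibril-associated collagens, which decorate fibrils without forming them alone, were lower in granulosa for 6 of 7 tested and higher for 1. COL14A1 and COL12A1, which coat type I fibrils, had log2 changes of -3.59 ± 0.20 and -2.73 ± 0.29. The level of COL14A1 was 444 to 3506 in granulosa (median 786) and 8696 to 23405 in theca (median 13210), and that of COL12A1 was 887 to 9169 in granulosa (median 3360) and 11326 to 79060 in theca (median 22170). Neither range overlapped between the layers. COL16A1 and COL21A1 changed by -1.26 ± 0.18 and -1.81 ± 0.22, with overlapping ranges and medians of 4334 and 238 in granulosa, against 9531 and 683 in theca. COL16A1 overlapped only through sheep 209. Without that animal it was 3548 to 7369 in granulosa and 7574 to 14263 in theca, with a log2 change of -1.08 ± 0.10. COL9A2, COL9A3 and COL9A1 encode the 3 chains of type IX collagen, best known from cartilage, and did not move together. COL9A2 had 13.8, 283, 160, 309 and 141 in granulosa of prenatal T sheep 209, 210, 230, 276 and 315 and 614, 650, 304 and 101 in granulosa of control sheep 224, 244, 246 and 268. In theca it had 8.86, 97.1, 51.3, 125 and 52.3 in the prenatal T sheep and 61.3, 242, 224, 190 and 27.1 in control sheep 139, 224, 244, 246 and 268. Granulosa was above theca in 9 of 9 animals, with a log2 change of 1.32 ± 0.15 (adjusted p 2.08e-05; 0.0826 with no block for the animal). COL9A3 showed the reverse, at 0 to 41.1 in granulosa (median 28.4) and 2.53 to 1401 in theca (median 306), with a log2 change of -3.99 ± 0.31. Without sheep 209 it did not overlap, at most 41.1 in granulosa and at least 201 in theca. Its 0, in the granulosa library of sheep 209, allows a level of up to 3.45 for counting error alone. COL9A1 did not exceed 61.1 in any library and changed by -2.11 ± 0.44.

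The remaining classes were lower in granulosa where they passed. COL15A1 and COL18A1, multiplexins of basement membrane zones whose ends can be released as endostatin-like fragments, had log2 changes of -1.70 ± 0.14 and -1.34 ± 0.22. COL18A1 in granulosa of control sheep 224 reached 9444, beside 1422 to 3706 in the other granulosa libraries, and sheep 224 alone of the 8 animals other than sheep 209 had more COL18A1 in granulosa than in theca (135%). COL7A1, the anchoring fibril collagen of skin, changed by -2.24 ± 0.30, COL8A1, a network former of vessels, by -1.22 ± 0.25 (adjusted p 0.155 with no block for the animal), and the membrane-spanning COL13A1 by -1.25 ± 0.19. COL17A1, the hemidesmosomal collagen of epithelia, did not exceed 28.8 in any library other than those of sheep 209, and did not pass (0.04 ± 0.33). COL10A1, COL20A1 and COL22A1 were below the filter, with levels of at most 15.7.

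Ratios of 2 chains within a library do not depend on library scaling, apart from 2 pairs, COL9A1/COL9A2 and COL8A1/COL8A2, in which a chain was at 0 in a library and 1 was added to both levels. Of 13 pairs of chains of 1 trimer or fibril, or of related genes, 4 differed between layers in an exact two-sided sign-flip permutation test over 9 animals, with adjusted p of 0.0254 for each. COL11A1/COL11A2 was lower in granulosa in 9 of 9 animals, with a log2 difference of -3.75. COL3A1/COL1A1 and COL5A3/COL5A1 were higher in granulosa in 8 of 9, with log2 differences of 0.47 and 1.09. The other one was COL9A1/COL9A2, for which no size is given, since COL9A1 was at 0 in granulosa of 4 of 9 animals. In sheep 209 COL9A1 was at 0 in both layers, so the sign there is that of COL9A2 alone. Without sheep 209 the log2 differences of COL11A1/COL11A2, COL3A1/COL1A1 and COL5A3/COL5A1 were -3.40, 0.35 and 0.91, and the adjusted p was 0.0508 for each of the 4 pairs, in a design whose smallest unadjusted p is 0.00781.

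Other ratios stayed within a narrow band although the levels differed several-fold. COL1A1/COL1A2 was 1.64 to 1.96 in granulosa and 1.61 to 1.97 in theca without sheep 209, and 0.711 and 1.20 in sheep 209. COL4A1/COL4A2 was 1.49 to 1.90 in granulosa and 1.53 to 1.84 in theca, and COL4A3/COL4A4 0.255 to 0.379 in granulosa and 0.220 to 0.358 in theca. COL6A1/COL6A2 was 1.38 to 1.89 in granulosa and 1.37 to 1.65 in theca. These last 3 bands also leave out sheep 209, whose ratios in granulosa and theca were 1.34 and 1.51, 0.425 and 0.516, and 1.69 and 1.71. These 3 pairs are neighbours with no protein-coding gene between them in RefSeq's annotation of sheep assembly ARS-UI_Ramb_v3.0, which was used for names and gene order alone. Among other neighbours, COL4A5/COL4A6 varied more in granulosa than these 3 pairs, at 1.56 to 3.11 without sheep 209. In theca, at 1.49 to 2.26 without that animal, it did not vary more in proportion than COL4A3/COL4A4. COL5A2 and COL3A1, also neighbours, were not among the ratios. COL6A5 and COL6A6 differed in log2 change between layers (-3.81 and -0.53). A ratio that is alike in both layers does not show that neither gene changed.

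As the collagens are built and cross-linked by a shared machinery, its genes were set beside them. Of 23 tested genes for hydroxylation, folding and secretion, 5 were called higher and 10 lower in granulosa, beside 28.6% higher and 28.0% lower over all genes. Those called higher included COLGALT2, which adds galactose to collagen (1.79 ± 0.46), and P4HA1, a catalytic chain of prolyl hydroxylase (0.84 ± 0.15). Those called lower included FKBP10, a prolyl isomerase for collagen (-1.84 ± 0.08), FKBP14 (-1.18 ± 0.10), the prolyl hydroxylase partner CRTAP (-1.01 ± 0.08) and the retrieval receptor KDELR3 (-1.10 ± 0.08). Of 13 processing and cross-linking genes, 2 were called higher, the protease TLL2 (1.94 ± 0.50) and LOXL4 of the lysyl oxidase family (1.18 ± 0.23), and 6 lower. Among the lower ones LOX and LOXL1, which cross-link fibrils, changed by -4.15 ± 0.26 and -3.27 ± 0.17, PCOLCE, an enhancer of propeptide removal, by -3.50 ± 0.21 and the propeptide protease TLL1 by -4.01 ± 0.37. Without sheep 209 those counts were 8 higher and 9 lower of 23, and 5 higher and 6 lower of 13, beside 31.7% higher and 31.0% lower over all genes.

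Of 13 proteins that bind or organise fibrils, 12 were called lower in granulosa and 0 higher by limma. Beside this and the next 2 lists, 28.0% of all genes tested were called lower and 28.6% higher. They included PRELP (-4.33 ± 0.14), FMOD (-4.71 ± 0.34), OGN (-3.75 ± 0.28) and BGN (-2.97 ± 0.17). Of 9 receptors, 7 were called lower, such as the integrin chain ITGA1 (-2.87 ± 0.14) and the endocytic receptor MRC2 (-1.13 ± 0.13), and 1 higher, DDR1, an epithelial collagen receptor kinase. DDR1 averaged 3982 ± 900.1 in granulosa and 1613 ± 444 in theca (SD, n = 9 and 10), a log2 change of 1.30 ± 0.07. Of 6 genes of collagen degradation, MMP2, CTSK and MMP14 were lower in granulosa, by -3.80 ± 0.22, -2.51 ± 0.22 and -0.97 ± 0.12, and 2 were higher, among them the collagenase MMP1 (2.65 ± 0.39). The same genes of these lists were called, in the same directions, without sheep 209, beside 31.0% lower and 31.7% higher over all genes.

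The second comparison was of prenatal T with control granulosa. No collagen was called by limma, 0 of 35 tested, with a smallest adjusted p of 0.875, and 0 of all 14724 genes were called. Without adjustment, 5 collagens had p under 0.05 and all 5 were lower in prenatal T sheep, beside 3.04% lower and 1.18% higher over all genes. On the recovered reads, edgeR called 0 genes in all, and DESeq2 called 0 collagens beside 0.0340% of genes higher and 0.0747% lower. The collagens' median log2 change was -0.59, beside -0.01 over all genes, and 28 of 35 values lay below 0. All 10 tested fibrillar genes lay below 0, with a median of -0.94 (9 of 10 by edgeR and by DESeq2).

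Type I and III genes led this list. COL1A1 was 3337, 7248, 13710.2, 8116 and 12277 in granulosa of prenatal T sheep 209, 210, 230, 276 and 315, against 12589, 30780.3, 28281 and 28691 in control sheep 224, 244, 246 and 268. Control sheep 224 lay within the prenatal T range, and the 3 other controls lay above it. The log2 change was -1.56 ± 0.44 (unadjusted p 0.00609, adjusted p 0.875). COL1A2 was 4690.1, 4233, 8339.8, 4145 and 6957 in prenatal T granulosa, against 7239, 17495, 16848 and 15476 in control granulosa, with a log2 change of -1.31 ± 0.32 (unadjusted p 0.00274). COL3A1 was 7738, 6541, 10048, 4076 and 7886 in prenatal T granulosa, against 6574, 20826, 24301 and 14052 in control granulosa, with a log2 change of -1.08 ± 0.40 (unadjusted p 0.0245). For each of these 3 genes the groups overlapped only through control sheep 224.

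COL11A2 and COL6A1 were the other 2 with an unadjusted p under 0.05. COL11A2 was 20.7, 18.3, 12.7, 21.8 and 24.9 in prenatal T granulosa, against 48.4, 76.1, 31.8 and 25.1 in control granulosa, so the groups touched but did not overlap (log2 change -1.07 ± 0.40, unadjusted p 0.0253). COL6A1 was 4683, 2686, 4028, 2137 and 3685 in prenatal T granulosa, against 3072, 8861, 6897 and 6279 in control granulosa, with sheep 224 again among the prenatal T values (log2 change -0.82 ± 0.33, unadjusted p 0.0359). COL6A2, its partner, had a log2 change of -0.73 ± 0.34 (unadjusted p 0.0600). Besides COL11A2, COL4A3 had groups that did not overlap, at most 3403 in prenatal T and at least 3571 in control granulosa, so 2 of 35 lay wholly below, beside 1.69% of all genes tested, and 0 of 35 wholly above, beside 0.720%.

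**Figure D3:**
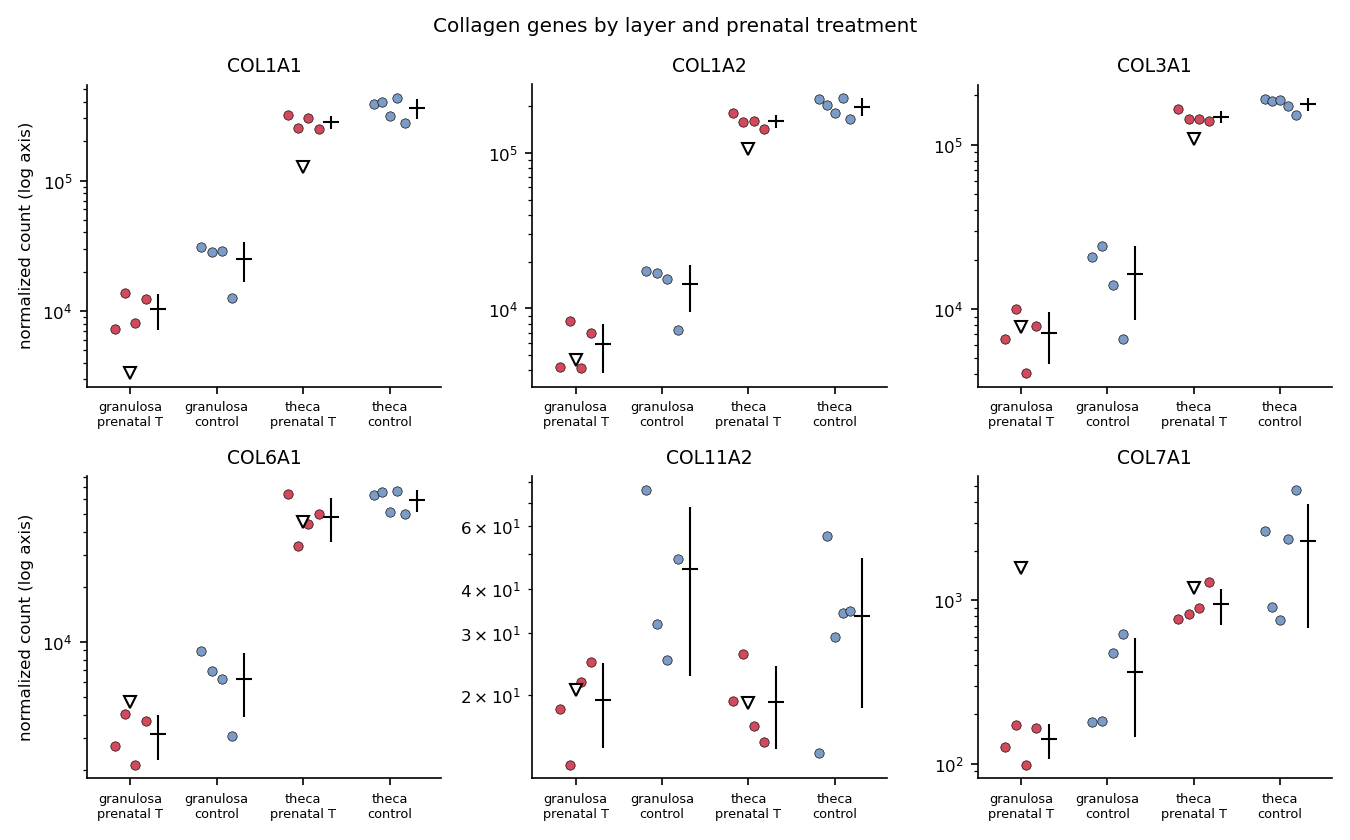
Levels of 6 collagens with a small unadjusted p in granulosa (COL7A1 without sheep 209), by library on log axes, in granulosa and theca, prenatal T left of control. Points are libraries, open triangles are sheep 209, and bars are the mean ± SD without sheep 209. In granulosa the control points of COL1A1, COL1A2 and COL3A1 lie above the prenatal T points, apart from sheep 224.

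Without sheep 209, limma and edgeR called 0 of 33 collagens in granulosa. By limma 11 had an unadjusted p under 0.05, all 11 lower, beside 5.03% lower and 1.98% higher over all genes. The smallest adjusted p by limma was 0.704. DESeq2 without this animal, an alternative chosen after seeing the data, called COL1A1 (log2 change -1.24, adjusted p 0.0284) and COL1A2 (-1.23, adjusted p 0.0427), beside 0.187% of genes called lower and 0.0346% called higher. Beyond type I and type III, COL14A1 (-0.87 ± 0.25, unadjusted p 0.00704), COL6A1 (-0.95 ± 0.33, unadjusted p 0.0169), COL6A3 (-0.84 ± 0.30, unadjusted p 0.0189) and COL7A1 (-1.19 ± 0.42, unadjusted p 0.0206) had the smallest p. COL14A1 was 721, 773, 444 and 786 in prenatal T granulosa without sheep 209, against 783, 1399.5, 1559 and 1272 in control granulosa. COL7A1 was 127, 171, 98.6 and 166, against 620, 180, 182 and 477 in control granulosa. The groups of COL7A1 did not overlap, which with COL11A2 and COL4A3 made 3 of 33 wholly below and 0 wholly above, beside 2.70% and 1.15% of all genes. COL14A1 and COL7A1 were high in sheep 209, at 3506 and 1587, and with all libraries their log2 changes were -0.39 ± 0.53 and -0.48 ± 0.81. Those directions turned on the recovered reads, to 0.011 by edgeR for COL14A1, and to 0.23 by edgeR and 0.25 by DESeq2 for COL7A1.

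All collagens together took 0.587 ± 0.116% of summed levels in prenatal T granulosa without sheep 209 and 0.919 ± 0.187% in control granulosa (SD, n = 4 each), with overlapping ranges. Without sheep 209, fibrillar genes took 30.9 ± 4.48% of summed collagen levels in prenatal T granulosa and 43.8 ± 7.92% in control granulosa (SD, n = 4 each), with ranges of 27.2 to 36.6% and 32.1 to 49.1%. Type IV genes took 46.6 ± 5.12% in prenatal T and 35.3 ± 3.98% in control granulosa. The ranges for type IV, 42.2 to 52.3% and 32.3 to 41.1%, did not overlap, while those for fibrillar genes did, through control sheep 224. The log2 changes of COL4A1 and COL4A2 themselves, with all libraries, were -0.28 ± 0.23 and -0.27 ± 0.17 (unadjusted p 0.251 and 0.158). In granulosa of sheep 209 the shares were 29.2% fibrillar and 31.7% type IV, and with it type IV overlapped too. These shares were not tested.

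Markers of other cells were measured in the same libraries, and limma called 0 of them between the treatment groups. The summed level of 13 theca markers without collagens was 4961 to 11252 in prenatal T granulosa without sheep 209 (5195 in sheep 209), against 8127 to 12335 in control granulosa. Their median log2 change was -0.69, with 11 of 13 below 0, and -0.43 with 10 of 13 below 0 without sheep 209. CYP17A1 was at 0 in granulosa of sheep 209, and no theca marker was at 0 in the other granulosa libraries. The summed level of 8 smooth muscle and pericyte markers was 19136 to 27486 in prenatal T granulosa without sheep 209 (11351 in sheep 209), against 28642 to 43086 in control granulosa, without overlap. Gene by gene the shift was small, with 6 of 8 below 0 and a median log2 change of -0.12, and -0.24 with 6 of 8 below 0 without sheep 209. Granulosa of prenatal T sheep 276 had the lowest level of all granulosa libraries but sheep 209 for 20 of the 31 collagens with a mean of at least 100 in a layer without sheep 209, and also the lowest summed theca markers. Control sheep 246 and 244 had the highest level for 9 and 8 of the 31. In granulosa of prenatal T sheep 209, 210, 230, 276 and 315, summed theca markers were 5195, 7072, 8923, 4961 and 11252. In control sheep 224, 244, 246 and 268 they were 8340, 10208, 12335 and 8127. COL1A1 in the same prenatal T sheep was 3337, 7248, 13710.2, 8116 and 12277. In the same control sheep it was 12589, 30780.3, 28281 and 28691. Besides sheep 209, summed smooth muscle and pericyte markers were lowest in sheep 315 (19136), followed by sheep 276 (19658). The summed level of 9 granulosa markers was 69791 to 130691 in prenatal T granulosa without sheep 209 (23611 in sheep 209), against 49076 to 119025 in control granulosa. Without sheep 209, 9 of 9 granulosa markers lay above 0, with a median log2 change of 0.35, and with all libraries 8 of 9 lay below 0, with a median of -1.29. The part of granulosa, theca and pericyte RNA in the collagen values was not tested.

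The third comparison was of prenatal T with control theca, where most collagen mRNA is. limma and edgeR called 0 of 39 collagens, with a smallest adjusted p by limma of 0.644, and 0 of 15492 genes in all. DESeq2 called 0 collagens beside 0.0129% of genes higher and 0.0323% lower. Without adjustment 3 had p under 0.05, all lower in prenatal T, beside 3.65% lower and 4.05% higher over all genes. The median log2 change was -0.35, beside 0.00 over all genes, 29 of 39 values lay below 0, and so did 11 of 11 fibrillar genes (10 of 11 by edgeR and by DESeq2 without sheep 209).

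COL27A1 was 1346, 2802, 2321, 2464 and 2331 in theca of prenatal T sheep 209, 210, 230, 276 and 315, against 3329, 3017, 4197, 2774 and 3935 in control sheep 139, 224, 244, 246 and 268. The groups overlapped by 1 value on each side, prenatal T sheep 210 lying just above control sheep 246. The log2 change was -0.64 ± 0.20 (unadjusted p 0.00884, adjusted p 0.644). COL16A1 was 4532, 9261, 9802, 7789.5 and 7574 in prenatal T theca, against 13786, 12791, 12903, 8195 and 14263 in control theca, where control sheep 246 lay among the prenatal T values (-0.69 ± 0.23, unadjusted p 0.0121). COL9A1, at 0, 16.0, 13.6, 23.5 and 1.14 in prenatal T theca and 57.1, 42.0, 40.2, 13 and 61.1 in control theca, had a log2 change of -2.55 ± 0.91 (unadjusted p 0.0173) at these low levels. Its value of 0, in sheep 209, allows a level of up to 3.80.

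The next in order were COL7A1 (-0.91 ± 0.46), COL24A1 (-0.77 ± 0.39) and COL6A2 (-0.35 ± 0.19), with unadjusted p of 0.0722, 0.0743 and 0.0950. COL7A1 was 1196, 768, 823, 895 and 1292 in prenatal T theca, against 2674, 4767, 905, 756 and 2390.1 in control theca, so controls 139, 224 and 268 lay above all prenatal T sheep and controls 244 and 246 did not. The main type I gene was not among these. COL1A1 was 127254, 315714, 251942, 303359 and 250557 in prenatal T theca, against 387425, 276534, 402124, 312206 and 427685 in control theca (log2 change -0.58 ± 0.35, unadjusted p 0.131).

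Without sheep 209, limma called 0 of 38 in theca, and 5 had an unadjusted p under 0.05, all lower, beside 5.77% lower and 6.34% higher over all genes. They were COL27A1 (-0.46 ± 0.13, unadjusted p 0.0052, adjusted p 0.371), COL16A1 (-0.51 ± 0.17), COL9A1 (-1.87 ± 0.71), COL6A3 (-0.51 ± 0.20, unadjusted p 0.0294) and COL5A1 (-0.37 ± 0.16, unadjusted p 0.0367). No collagen had groups that did not overlap in theca, with all libraries or without sheep 209, beside 0.981% and 2.08% of all genes wholly below and 1.28% and 2.53% wholly above. All collagens together took 5.48 ± 0.515% of summed levels in prenatal T theca without sheep 209 and 6.71 ± 0.768% in control theca (SD, n = 4 and 5), and 5.15 ± 0.863% in prenatal T theca with sheep 209 (n = 5). The make-up was near the same without sheep 209, with fibrillar genes at 74.0 ± 1.80% in prenatal T and 74.9 ± 1.79% in control theca and type IV genes at 8.73 ± 0.946% in prenatal T and 7.96 ± 0.576% in control theca. Summed theca markers ran from 40417 to 51487 in prenatal T theca without sheep 209 (23474 in sheep 209, with CYP17A1 at 0) and from 47346 to 48849 in control theca. With all libraries 11 of 13 theca markers lay below 0, with a median log2 change of -0.45, and without sheep 209 9 of 13 did, with a median of -0.10. The granulosa markers in theca lay below 0 for 6 of 9 with all libraries (median -0.84) and above 0 for 9 of 9 without sheep 209 (median 0.41). The part of these cells in the collagen values of theca was not tested.

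**Figure D4:**
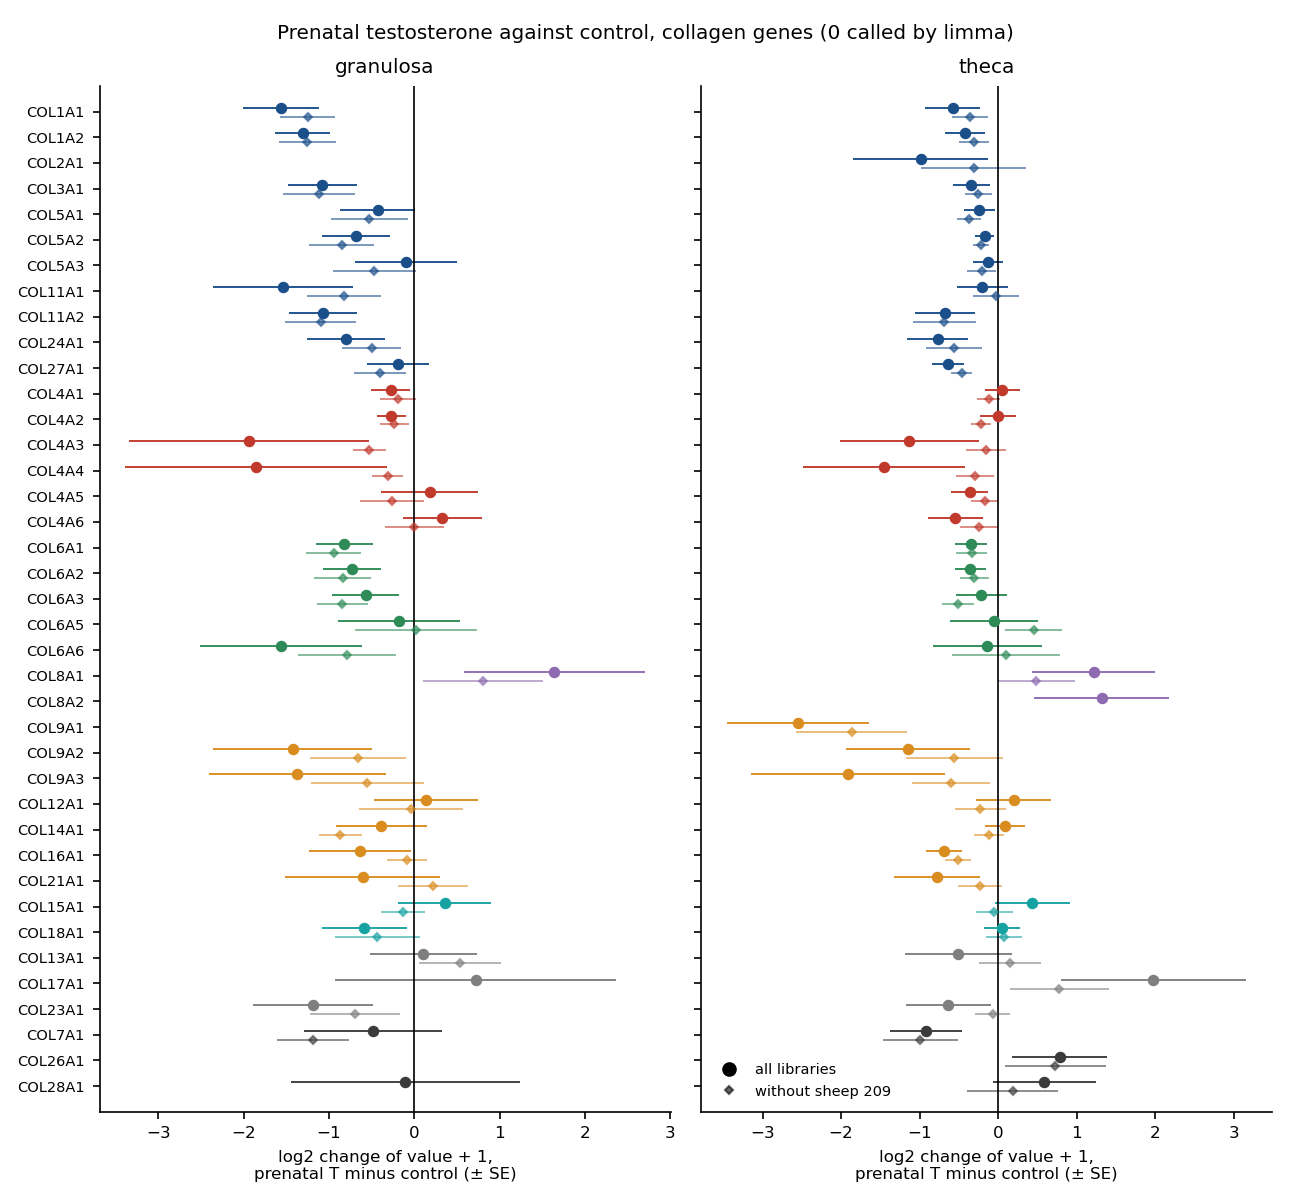
Log2 change between prenatal T and control (± SE) for each tested collagen in granulosa and in theca. Circles are all libraries and small diamonds leave out sheep 209, and 0 genes were called by limma in either layer. Fibrillar genes lie left of 0 in both panels, and wide errors mark genes that sheep 209 sets apart, such as COL4A3 and COL4A4.

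Whether the prenatal T effect differed between layers was tested as granulosa effect minus theca effect, with the animal as a block. limma called 0 of 39 collagens and edgeR 0, and DESeq2 0 beside 0.0861% of genes lower and 0.0246% higher. Without adjustment 4 had p under 0.05, all with the lower effect in granulosa, beside 3.04% lower and 1.62% higher over all genes. The differences were -1.01 ± 0.33 for COL1A1 (unadjusted p 0.0115, adjusted p 0.960), -0.93 ± 0.32 for COL1A2 (unadjusted p 0.0156), -1.37 ± 0.56 for COL17A1 and -1.37 ± 0.56 for COL11A1, followed by COL6A6 (-1.61 ± 0.73) and COL3A1 (-0.76 ± 0.38), which did not reach p 0.05. Without sheep 209 there were 6 with p under 0.05 (background 5.82% lower and 2.46% higher), the smallest being that of COL11A1 (-0.84 ± 0.25, unadjusted p 0.0074, adjusted p 0.537), with COL17A1 at -1.75 ± 0.54, COL1A2 at -0.99 ± 0.32, COL1A1 at -0.92 ± 0.32, COL14A1 at -0.81 ± 0.29 and COL3A1 at -0.89 ± 0.37. COL17A1 did so at levels of at most 28.8. Prenatal T also left no called change in the 13 chain ratios of either layer, 0 of 26 tests by exact permutation of treatment over animals (smallest adjusted p 0.660, and 0.784 without sheep 209). The smallest unadjusted p possible with all animals was 0.00794.

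Of the collagen machinery, limma, edgeR and DESeq2 called 0 genes by treatment in either layer, among 23 for hydroxylation, folding and secretion, 13 for processing, 9 receptors, 12 fibril partners and 6 for degradation. By limma 0, 1, 2, 2 and 1 of these had an unadjusted p under 0.05 in granulosa, and 1, 0, 3, 0 and 0 in theca, beside 1.18% higher and 3.04% lower over all genes in granulosa and 4.05% higher and 3.65% lower in theca. In granulosa the smallest unadjusted p belonged to the collagenase MMP13 (4.09 ± 1.25, p 0.00933), the cross-linking enzyme LOXL1 (-0.91 ± 0.30, p 0.0148), the fibril-bound proteoglycan BGN (-0.80 ± 0.28, p 0.0188) and the collagen uptake receptor MRC2 (-0.68 ± 0.24, p 0.0209). In theca they belonged to MIA2, which aids collagen export (0.50 ± 0.17, p 0.0133), and to the integrin chain ITGA10 (-0.64 ± 0.22, p 0.0147). Their adjusted p was 0.875 in granulosa and 0.644 in theca. MMP13 averaged 326 ± 291 in prenatal T and 45.7 ± 80.9 in control granulosa (SD, n = 5 and 4), and its effect in granulosa minus that in theca was 2.12 ± 0.43 (p 0.00061, adjusted p 0.663).

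For most collagens, levels spread more widely between libraries in granulosa than in theca. Without sheep 209, the standard deviation of the log2 level had a median over the same 31 collagens of 0.747 in granulosa and 0.384 in theca, and it was the larger in granulosa for 24 of 31. COL3A1 spanned a 5.96-fold range in granulosa and a 1.36-fold range in theca, and COL5A2 a 5.14-fold and a 1.35-fold range. COL4A2 and COL4A1 had narrow ranges in granulosa, 1.76-fold and 1.84-fold. These figures hold the treatment groups together, and read depth overlapped between the layers. Some of the 31 were kept only for their theca level and rest on few reads in granulosa. Examples are COL9A3 and COL6A5, at most 41.1 and 61.8 in granulosa without sheep 209. Counting error adds to the spread of such genes, and its part in the granulosa figures was not tested.

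Sheep 209 had its own collagen profile in both layers. Of the 31 collagens, which were chosen without its values, its granulosa library lay below all other granulosa libraries for 12 and above them for 9, and its theca library below the others for 16 and above for 7. COL4A3 and COL4A4 were very low, at 19.6 and 46.0 in its granulosa, against 1787 to 4318 and 6997 to 14446 in the other granulosa libraries. COL9A2, COL11A1 and COL16A1 were low as well, at 13.8, 20.7 and 670 in granulosa, against at least 101, 133 and 3548 elsewhere.

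Other genes were high. COL17A1, the epithelial hemidesmosome collagen and not among the 31, was 1796 in its granulosa and 916 in its theca, 188 and 84.7 times the median of the other libraries of the layer. COL8A1 was 1116 and 1714, against at most 186 and 314, and COL15A1 2709 and 9037, against at most 887 and 2687. In theca COL12A1 reached 79060.1, against at most 31802, and in granulosa COL7A1 was 1587, against at most 620. COL4A5 and COL4A6 were above the other granulosa libraries, at 1698 and 594, and below the other theca libraries, at 1525 and 549, so its layers were alike in both genes (111% and 108% in granulosa of the theca level). Its summed immune markers were also high, at 12730 in granulosa and 15054 in theca, against at most 1771 and 1921, and their part in these values was not tested.

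**Figure D5:**
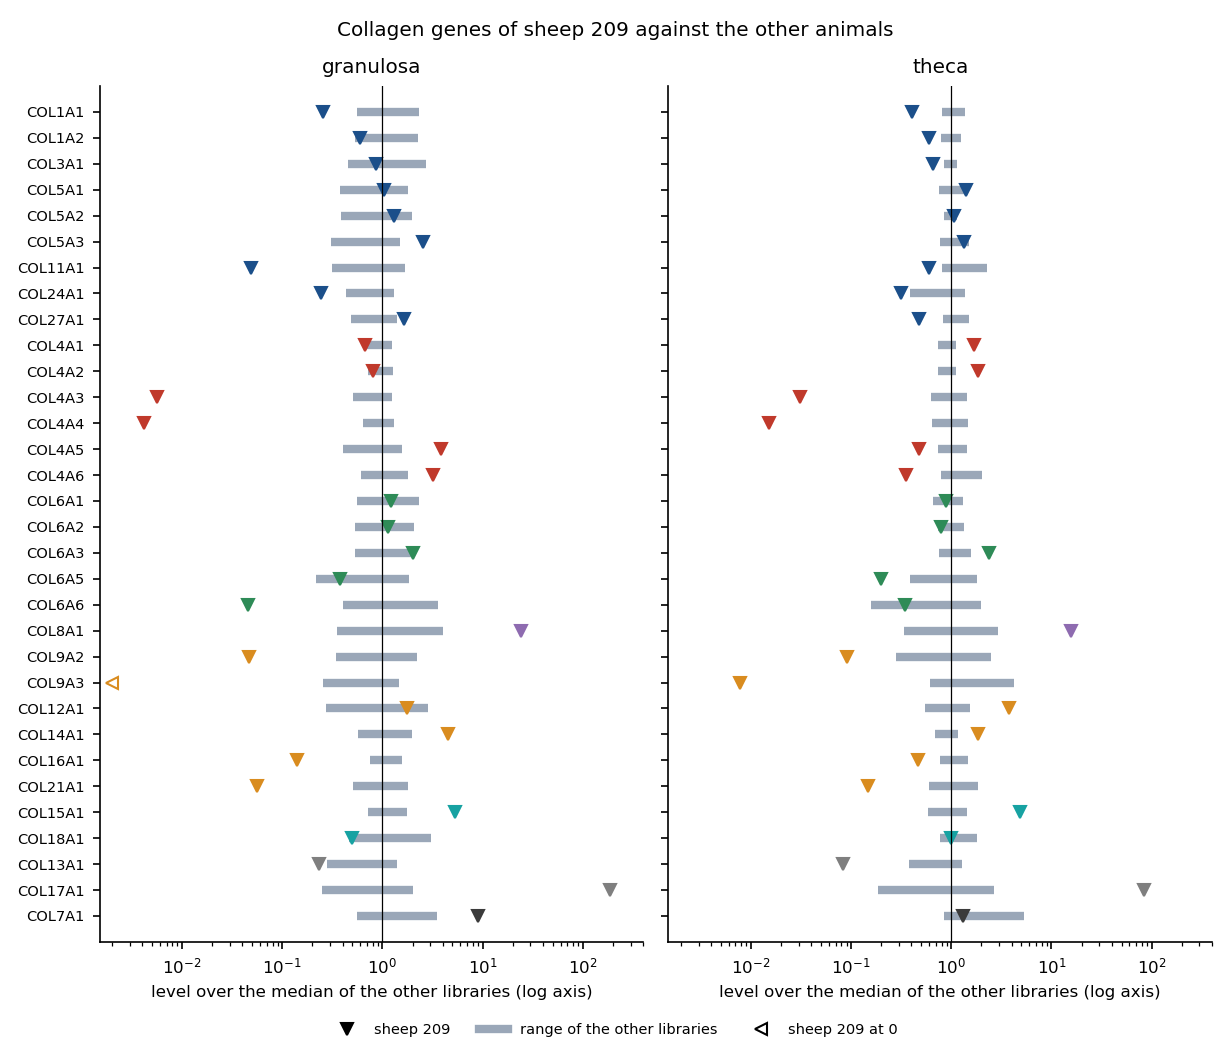
Collagen levels in sheep 209 divided by the median of the other libraries of the layer, on log axes, for granulosa and theca. Triangles are sheep 209, the open one at the left edge a level of 0, and bars span the other libraries. COL17A1 lies 188 and 84.7 times above the median, and COL4A3 and COL4A4 lie far below the bars in both layers.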

How the data were processed

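Members, lists and comparisons were chosen with earlier results of these data known. The deposited table holds 1 signal per gene and library, made by the authors from gene counts by division with library size factors. The submitters' processing notes name STAR 2.6.0c, DESeq2, Subread 1.6.1 with featureCounts, MultiQC 0.9 and FastQC 0.11.5. The genome build and the strand setting of counting are not given in the sources used here. Libraries were stranded, made from low input after ribosomal RNA removal, per the labels. Values were 100% whole multiples of 1 step per library (relative tolerance 1e-06), so whole reads were recovered. Of the 20 libraries that the labels list, 19 entered the tests, and each value column was matched to a library (0 unmatched).

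Genes that reached 10 in 5 or more libraries entered the tests. These were two-sided and used limma 3.58.1 in R 4.3.3 on log2(value + 1), with prior variance allowed to follow the mean, and with the animal as a block where layers were compared. Alternatives on the recovered counts used DESeq2 1.42.0 and the quasi-likelihood test of edgeR 4.0.16. The tests were tried on simulated data first. Layers of an animal share the animal: their deviations from group means correlated at 0.42 to 0.80 across genes in 9 animals. No repeated library was found in 36 pairs of a group (smallest chi-square per degree of freedom 27.7). Collagens were named between layers when their mean was at least 100 in a layer, and in the other comparisons by the 6 smallest p with and without sheep 209; up to 4 genes of smallest p were considered from each machinery list. Genes named outside this rule (among them COL2A1, COL11A2, COL8A2, COL9A1, COL10A1, COL20A1 and COL22A1 between layers, and COL4A1, COL4A2, COL4A3, COL4A4 and, in theca, COL1A1 by treatment) were chosen after their values were seen. The RefSeq table held 41 of the 42 symbols. Counting error alone gives the limit of 3 reads for a value of 0.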

Additional observations from a re-analysis of the deposited data

Results flagged for a closer look

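In 128 groups of 4 or 5 libraries (32 collagens in 4 groups), a library was marked when its gap to the nearest other library was large for the range of the group. This happened 19 times, and chance marks about 1 in 20 groups. Of these, 15 were of sheep 209 and 4 of other animals. COL17A1 was among the 32 only through sheep 209 (31 without it), so its mark of that animal follows from how the genes were chosen. The groups share libraries and are not independent, so these counts cannot be weighed against that rate.

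In prenatal T granulosa, sheep 209 stood below the rest for COL4A3 (19.6), COL4A4 (46.0), COL9A2 (13.8) and COL16A1 (670). It stood above the rest for COL14A1 (3506), COL15A1 (2709), COL17A1 (1796) and COL7A1 (1587). In prenatal T theca it was below the rest for COL1A1 (127254), COL27A1 (1346), COL4A3 (41.8), COL4A4 (81.0) and COL9A3 (2.53), and above for COL6A3 (38661) and COL15A1 (9037).

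Among controls, granulosa of sheep 224 was below the other 3 for COL1A1 (12589) and COL1A2 (7239), and theca of sheep 246 was below the other 4 for COL24A1 (77.9) and COL16A1 (8195).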

How the results depend on the processing

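The alternatives were pseudocounts of 0.5 and 5, no filter on low values, TMM scaling, edgeR, DESeq2, leaving out each animal, and the animal as a block or not. After seeing the data, edgeR, DESeq2 and TMM without sheep 209 were added. TMM moved the median of all genes by less than 0.1 (log2).

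Between layers, the 3 collagens called higher became 0 with no block for the animal, in which COL4A3 (1.05), COL4A4 (0.91), COL9A2 (1.42) and COL8A1 (-1.25) lost their call, as did the ratio COL3A1/COL1A1 (0.48). The animal block applied to both treatment comparisons in 1 model changed no other call. Leaving out each animal gave 31 to 32 collagens lower and 3 to 3 higher, but left 0 to 3 chain ratios called, where all 9 animals gave 4; with 8 animals the test cannot go below p 0.00781 before adjustment. In granulosa 2 collagens, COL1A1 and COL1A2, were called lower by DESeq2 without sheep 209, against 0 by limma. Prenatal T counts in both layers, the difference between layers and the treatment ratios were otherwise 0 in each alternative run, 0 to 0 when animals were left out.

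Directions turned for COL17A1 between layers, -0.063 by edgeR, -0.081 by DESeq2 and -0.048 with TMM without sheep 209, and -0.14 to 0.25 over animals left out, beside 0.04. In granulosa they turned for COL14A1 by edgeR (0.011, beside -0.39) and for COL7A1 by edgeR (0.23) and DESeq2 (0.25, beside -0.48). Ratios of COL5A1/COL5A2 (-0.039 to 0.10), COL6A3/COL6A1 (-0.14 to 0.023) and COL8A1/COL8A2 (-0.55 to 0.15) turned when an animal was left out. The cause was not tested. Low levels limit COL9A1, COL9A3, COL11A2 and COL17A1, which rest on few reads in some groups.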
